A study of Mus musculus with 6 samples.

Results

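The E2F and DP genes were followed in whole mouse hearts at embryonic day 13.5 by the number of RNA sequencing reads counted on each gene. The members were chosen by symbol: E2f1, E2f2 and E2f3, which are mainly activators, E2f4, E2f5, E2f6, E2f7 and E2f8, which are mainly or only repressors, and Tfdp1 and Tfdp2, which encode the DP partners. All 10 were found among the 45792 genes of the count table, and all 10 passed the filter on low counts that left 17125 genes for testing. The 6 hearts are 3 labelled WT, with the genotype wild-type, and 3 labelled KO, with the genotype Tie2Cre INO80 flox/flox, and the labels give the strain of all 6 as C57BL/6. Tie2Cre expresses the recombinase from the Tek promoter in endothelial cells and their descendants, which also include blood cells, and the floxed allele has loxP sites on either side of exon 6 of Ino80, which encodes the ATPase of a chromatin remodelling complex. In the methods, transgenic mice are on mixed backgrounds and embryos come from Ino80 flox/+ males that carry Cre and Ino80 fl/fl females, so a wild-type embryo is not a product of that cross, and controls are elsewhere defined as every genotype other than the mutant. Embryos were not typed for sex. The comparison of KO-labelled with WT-labelled hearts asks which genes differ when endothelial Ino80 is removed.

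E2F proteins bind the promoters of genes for DNA replication and cell division. Activator E2Fs are held by the retinoblastoma protein until cyclin-dependent kinases release them late in G1, after which they switch on S phase genes. E2F4 and E2F5 bring the related pocket proteins to the same promoters in resting cells, E2F6 acts with Polycomb proteins and does not bind pocket proteins, and E2F7 and E2F8 bind DNA without a DP partner and shut E2F promoters down as S phase proceeds. E2f7 and E2f8 are themselves E2F target genes, and mouse embryos that lack both are known to die with vascular defects. In the developing heart the family is active in dividing cardiomyocytes, endothelial cells and other cell types alike, so counts from whole hearts mix all of them.

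The hearts held between 28948836 and 89675692 counts, and the deepest library, KO replicate 1, had 3.10 times the counts of the shallowest. Levels are given as CPM, the counts of a gene scaled to a fixed library size, with library sizes corrected by the TMM method. Each of 10 cardiomyocyte markers had counts in every heart, with sums of 22350 to 27540 CPM, and so had each of 10 pan-endothelial markers, at 910 to 1150 CPM, whereas the 6 liver markers summed to at most 2.04 CPM. Ino80 was at 30.2, 31.6 and 32.7 CPM in WT replicates 1 to 3 and at 36.5, 33.7 and 31.8 CPM in KO replicates 1 to 3. The count over the whole gene therefore did not separate the groups, and it says little about a deletion of exon 6 in 1 lineage of a whole heart.

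Among the repressors, 4 of 5 were higher in every KO-labelled heart than in any WT-labelled heart. These were E2f4, E2f5, E2f7 and E2f8, and over all tested genes the groups were separated in this direction for 14.3%. Among the activators, 0 of 3 were separated in either direction. Tfdp2 was lower in every KO-labelled heart, a direction in which 12.8% of tested genes were separated. The largest difference was that of E2f8, at 1.28-fold. With edgeR's quasi-likelihood test, 0 of the 10 members passed an adjusted p of 0.05, and over all 17125 tested genes 0% passed in either direction. At an unadjusted p under 0.05, E2f4 and E2f8 were higher, where 9.48% of tested genes were higher, and 0 members were lower, where 9.98% of tested genes were lower. DESeq2 passed E2f8 alone of the 10 at its adjusted threshold of 0.05, against a background of 2.52% of its genes higher and 3.26% lower. The count over all genes depended on the setting, and without WT replicate 1 edgeR passed 1.85% of genes higher and 2.49% lower, with 0 members among them.

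**Figure D1:**
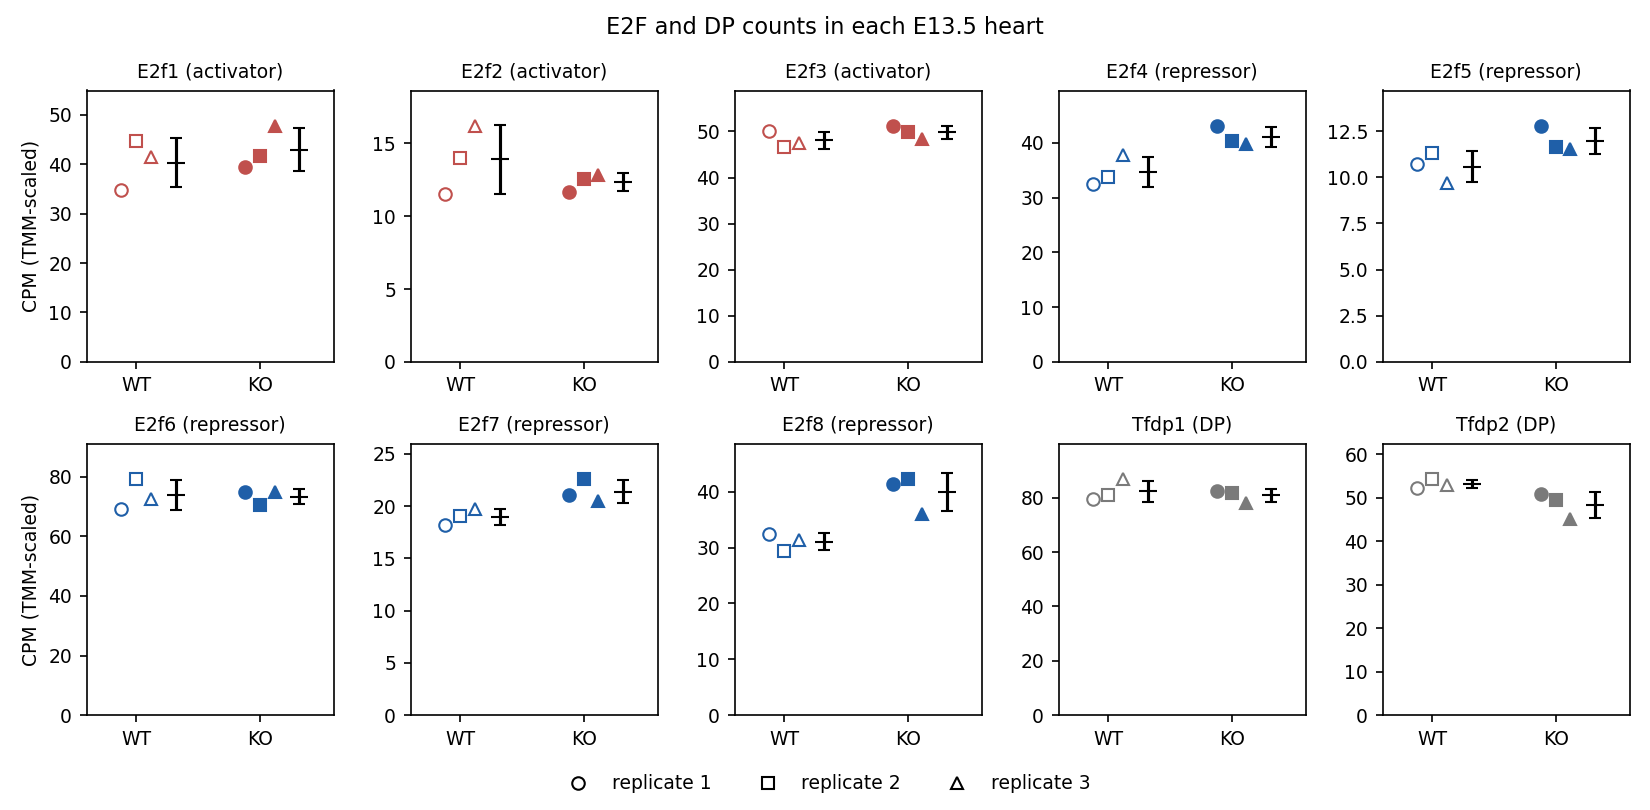
TMM-scaled CPM (vertical axes, from 0) of each member in the 3 WT-labelled (open) and 3 KO-labelled (filled) hearts, with the mean and SD as bars. The groups do not overlap for E2f4, E2f5, E2f7, E2f8 and Tfdp2, and overlap for the other members.

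E2f8 lies on chromosome 7 of GRCm38 from 48866429 to 48881596 on the minus strand. It was at 32.4, 29.5 and 31.3 CPM in WT replicates 1 to 3 and at 41.4, 42.3 and 36.0 CPM in KO replicates 1 to 3. The lowest KO-labelled heart, replicate 3, stood clear of the highest WT-labelled heart, and the KO-labelled hearts were spread more widely. The means were 31.1 ± 1.49 CPM and 39.9 ± 3.38 CPM (SD, n = 3 each). This is a log2 difference of 0.36 ± 0.09 (SE), with a 95% interval of 0.16 to 0.56 and an adjusted p = 0.11 from edgeR and 0.028 from DESeq2. Of the 5443 exon bases of E2f8, 610 are shared with Gm2788 on the other strand, a gene that had only 12 to 49 counts per heart.

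E2f7, the other atypical member, lies on chromosome 10 from 110745439 to 110787384. It was at 18.2, 19.0 and 19.7 CPM in WT-labelled hearts and at 21.1, 22.6 and 20.5 CPM in KO-labelled hearts. All 3 KO-labelled hearts were above all 3 WT-labelled hearts, but the gap between WT replicate 3 and KO replicate 3 was small. Its log2 fold change of 0.17 ± 0.08 (SE) had a 95% interval of -0.016 to 0.36 and an adjusted p = 0.29 from edgeR. Per kb of exon, E2f8 stood at 2.71 ± 0.21 times the level of E2f7 in WT-labelled hearts and at 3.09 ± 0.18 times in KO-labelled hearts (SD, n = 3 each), with overlap.

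The promoters of E2f8 and E2f7 are shown because these related genes both had KO-labelled hearts above WT-labelled hearts. For E2f3, whose levels overlapped between the groups, window 1 of 2 is shown, because it holds every kind of word searched. Each is the RefSeq window on GRCm38.p6 from 250 bases before to 50 bases after the start of transcription, 5′ to 3′ on the strand of the gene. The windows are chr7:48881547-48881846 (minus strand) for E2f8, chr10:110745189-110745488 (plus strand) for E2f7 and chr13:29986014-29986313 (minus strand) for E2f3. Capitals mark, on either strand, the E2F words TTTCCCGC, TTTCGCGC, TTTGCCGC and TTTGGCGC, the word TTTGAA of the cell cycle homology region that the MuvB complex binds, and the word CCAAT bound by NF-Y.
E2f8: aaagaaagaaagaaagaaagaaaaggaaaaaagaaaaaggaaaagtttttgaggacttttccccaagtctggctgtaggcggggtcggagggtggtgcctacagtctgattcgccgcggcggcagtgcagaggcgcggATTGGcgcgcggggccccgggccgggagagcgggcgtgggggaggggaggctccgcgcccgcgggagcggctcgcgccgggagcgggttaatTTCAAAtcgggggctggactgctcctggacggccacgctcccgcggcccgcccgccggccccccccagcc
E2f7: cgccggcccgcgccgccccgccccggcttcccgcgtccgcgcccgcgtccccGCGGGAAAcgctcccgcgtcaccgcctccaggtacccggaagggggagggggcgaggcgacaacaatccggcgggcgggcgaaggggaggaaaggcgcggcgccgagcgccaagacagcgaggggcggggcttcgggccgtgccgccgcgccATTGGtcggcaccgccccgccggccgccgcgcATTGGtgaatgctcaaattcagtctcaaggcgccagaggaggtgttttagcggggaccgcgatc
E2f3: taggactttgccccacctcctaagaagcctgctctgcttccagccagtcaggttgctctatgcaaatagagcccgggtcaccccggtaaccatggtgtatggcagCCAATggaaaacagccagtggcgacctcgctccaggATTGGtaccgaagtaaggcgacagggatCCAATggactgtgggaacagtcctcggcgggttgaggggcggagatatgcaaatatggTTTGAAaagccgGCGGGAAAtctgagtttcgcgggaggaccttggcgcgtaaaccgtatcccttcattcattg
No match of one kind overlapped a match of another in these windows. E2f7 has TTTCCCGC on the opposite strand 198 bases before the start, and window 1 of E2f3 has it 11 bases before the start, next to TTTGAA. Window 2 of E2f3, chr13:29984342-29984641 (minus strand), is not shown and holds none of the words searched. The E2f8 window holds no E2F word but has TTTGAA on the opposite strand 20 bases before the start. Of all 32851 promoter windows in the table, 2.26% hold an E2F word, 17.9% hold TTTGAA and 37.4% hold CCAAT. The table has entries for 8 of the 10 members, in 12 windows, and E2f4 and E2f5 are not among them. Other E2F words were found in E2f2 (TTTGGCGC, in its first window, 39 bases after the start of transcription) and Tfdp1 (TTTCGCGC in both of its windows). The window of E2f1 and both windows of Tfdp2 lie inside the GENCODE bounds of these genes, so their outermost starts were not searched. These matches are a description of letters and not of bound sites.

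E2f4, a repressor abundant in resting cells (chromosome 8, 105297663 to 105305370), was at 32.4, 33.8 and 37.7 CPM in WT-labelled hearts. It was at 43.1, 40.3 and 39.7 CPM in KO-labelled hearts, again without overlap. The means were 34.7 ± 2.76 and 41.0 ± 1.79 CPM (SD, n = 3 each). Between them lay a log2 fold change of 0.24 ± 0.08 (SE), with a 95% interval of 0.050 to 0.44 and an adjusted p = 0.19 from edgeR and 0.18 from DESeq2. Its unadjusted p from edgeR was 0.020 with all hearts and 0.067, 0.051 and 0.068 without WT replicate 1, WT replicate 2 and KO replicate 1.

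E2f5, its closest relative in function (chromosome 3, 14578641 to 14606309), had 314 to 1182 counts per heart. It was at 10.7, 11.3 and 9.69 CPM in WT-labelled hearts and at 12.8, 11.6 and 11.5 CPM in KO-labelled hearts. The groups were separated only by the small step from WT replicate 2 to KO replicate 3. At a log2 fold change of 0.18 ± 0.11 (SE), E2f5 had a 95% interval of -0.062 to 0.43 and an adjusted p = 0.37 from edgeR. Of its 1782 exon bases, 26 are shared with 1810022K09Rik, which had 809 to 2394 counts per heart.

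E2f6, the Polycomb-associated member (chromosome 12, 16810963 to 16839742), was the repressor whose groups overlapped. It was at 69.3, 79.2 and 72.7 CPM in WT-labelled hearts and at 74.8, 70.5 and 74.7 CPM in KO-labelled hearts. E2f6 had a log2 fold change of -0.0067 ± 0.07 (SE), an adjusted p = 0.97 from edgeR, and the 95% interval of the fold ran from 0.886 to 1.12.

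E2f1, the member best known for driving both S phase entry and apoptosis (chromosome 2, 154559407 to 154569892), was at 34.8, 44.7 and 41.5 CPM in WT-labelled hearts. It was at 39.5, 41.6 and 47.8 CPM in KO-labelled hearts, and the ranges crossed. For E2f1 the log2 fold change of 0.089 ± 0.11 (SE) had an adjusted p = 0.69 from edgeR, and the 95% interval of the fold ran from 0.886 to 1.28. WT replicate 1 was the lowest of the 6 hearts, and without it the log2 fold change was -0.0069.

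E2f2 (chromosome 4, 136172394 to 136196057), an activator known for its role in the division of red cell precursors, was at 11.5, 13.99 and 16.2 CPM in WT-labelled hearts. It was at 11.7, 12.6 and 12.8 CPM in KO-labelled hearts, which lay within the range of the WT-labelled hearts. The difference came to -0.17 ± 0.13 (SE) on the log2 scale, with a 95% interval of -0.48 to 0.14 and an adjusted p = 0.50 from edgeR. It was -0.29 without WT replicate 1, the lowest heart, with an unadjusted p of 0.035, and -0.045 without WT replicate 3, the highest, with an unadjusted p of 0.73. The 13 erythroid markers in the table, embryonic globins included, each had counts in every heart and summed to 187 to 579 CPM in WT-labelled and 965 to 1399 CPM in KO-labelled hearts. Of the 12 tested, 4 had a log2 fold change above 0, namely the embryonic globins Hba-x, Hbb-y and Hbb-bh1 and the receptor gene Epor, and 8 were below 0, and their part in the values of E2f2 was not tested.

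E2f3, which is made as long and short isoforms that a count per gene does not tell apart (chromosome 13, 29906575 to 29986063), was at 50.2, 46.7 and 47.4 CPM in WT-labelled hearts. It was at 51.2, 49.9 and 48.4 CPM in KO-labelled hearts, and WT replicate 1 lay among them. On the log2 scale E2f3 differed by 0.051 ± 0.07 (SE), with an adjusted p = 0.71 from edgeR, and the 95% interval of the fold ran from 0.928 to 1.16.

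Tfdp1, the main DP partner (chromosome 8, 13338751 to 13378448), was at 79.5, 80.9 and 86.9 CPM in WT-labelled hearts and at 82.5, 81.8 and 78.2 CPM in KO-labelled hearts. Its groups overlapped, with a log2 fold change of -0.027 ± 0.07 (SE), a 95% interval of -0.18 to 0.12 and an adjusted p = 0.84 from edgeR. Tfdp2 (chromosome 9, 96196275 to 96323646) was at 52.2, 54.2 and 52.9 CPM in WT-labelled hearts and at 50.7, 49.4 and 45.0 CPM in KO-labelled hearts. Every KO-labelled heart was below every WT-labelled heart, and KO replicate 3 was the lowest. Tfdp2 had a log2 fold change of -0.13 ± 0.07 (SE), with a 95% interval of -0.30 to 0.035 and an adjusted p = 0.34 from edgeR. Per kb of exon, Tfdp1 stood at 5.93 ± 0.30 times the level of Tfdp2 in WT-labelled and 6.40 ± 0.22 times in KO-labelled hearts (SD, n = 3 each), with overlap. Before division by length, the means in WT-labelled hearts were 82.4 CPM for Tfdp1 and 53.1 CPM for Tfdp2. The lengths are unions of all annotated exons, 3670 bases for Tfdp1 and 14029 for Tfdp2, and the level of Tfdp2 per kb depends on them.

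**Figure D2:**
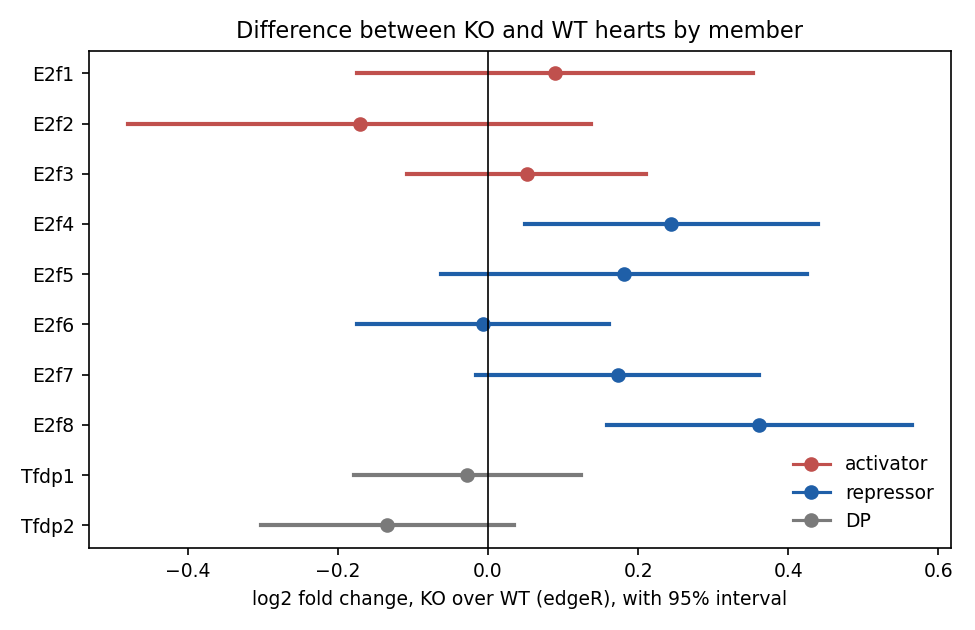
Log2 fold change of each member in KO-labelled over WT-labelled hearts (horizontal axis; points are estimates and lines are 95% intervals from edgeR), coloured by class. The intervals of E2f4 and E2f8 lie above 0, and the intervals of the other members include 0.

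To set activators beside repressors, the CPM of each member were divided by the length of its exons in GENCODE vM21, since only then can levels of different genes be compared or summed. The summed level of E2f1, E2f2 and E2f3 was 24.5 ± 1.63 CPM per kb in WT-labelled and 25.3 ± 1.21 CPM per kb in KO-labelled hearts (SD, n = 3 each). The ranges, 22.6 to 25.6 and 24.4 to 26.7, overlapped. The summed level of E2f4 to E2f8 was 40.9 ± 1.24 and 46.1 ± 1.61 CPM per kb (SD, n = 3 each), with ranges of 39.5 to 41.6 and 44.8 to 47.9 that did not overlap. Within the repressor sum, E2f4 and E2f5 together went from 20.1 ± 0.79 to 23.5 ± 1.12 CPM per kb, and E2f7 and E2f8 together from 7.82 ± 0.25 to 9.71 ± 0.72 CPM per kb (SD, n = 3 each).

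The ratio of the activator to the repressor sum was 0.573, 0.616 and 0.606 in WT-labelled hearts and 0.509, 0.546 and 0.596 in KO-labelled hearts. KO replicate 3 lay inside the range of the WT-labelled hearts, so the groups overlapped. The means were 0.599 ± 0.022 and 0.550 ± 0.044 (SD, n = 3 each). The atypical members E2f7 and E2f8 amounted to 35.3%, 29.4% and 31.5% of the activator sum in WT-labelled hearts and to 40.9%, 41.2% and 33.4% in KO-labelled hearts, with KO replicate 3 again within the WT-labelled range. The median log2 fold change was 0.051 for the 3 activators and 0.18 for the 5 repressors, against -0.0017 for all tested genes. The activator median was -0.0069 without WT replicate 1 and 0.013 without KO replicate 3. Whether activators and repressors differed in their change was not tested, because the members were chosen with results of these hearts known.

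**Figure D3:**
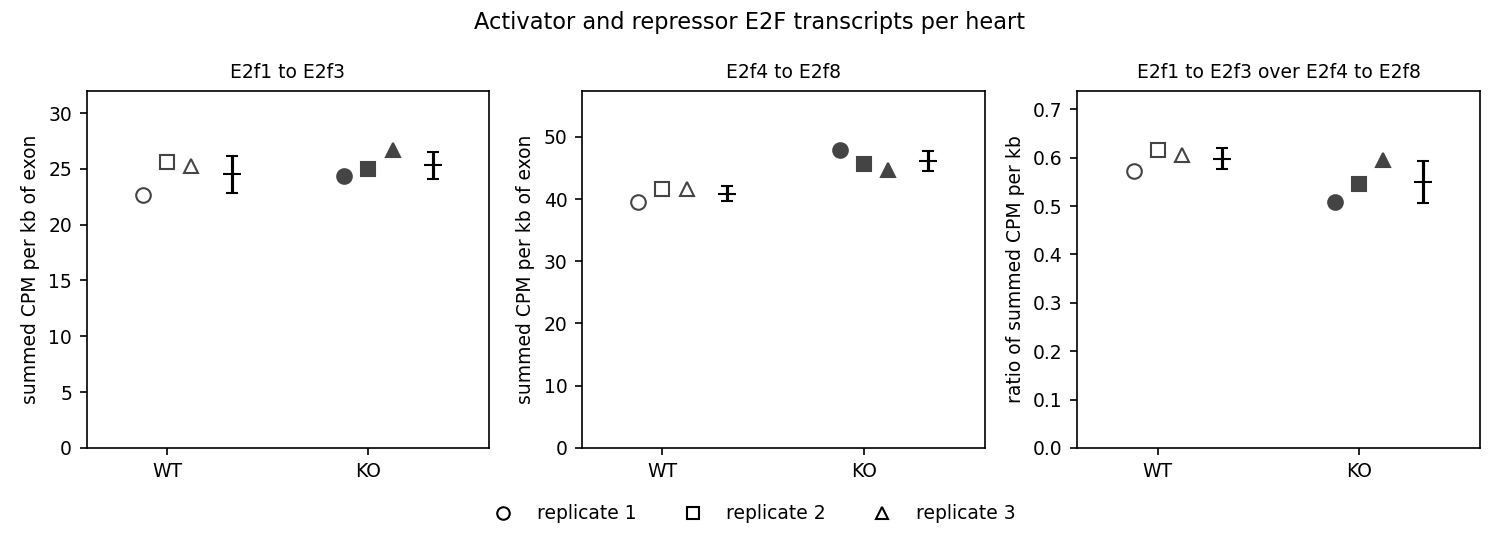
Summed CPM per kb of exon of E2f1 to E2f3 (left) and of E2f4 to E2f8 (middle), and their ratio (right), in each heart, with the mean and SD as bars. The repressor sums of the groups are separated at 41.6 against 44.8, while the activator sums and the ratio overlap.

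By level per kb in WT-labelled hearts, Tfdp1 came first at 22.5 ± 1.06 CPM per kb (SD, n = 3). E2f4 at 14.1, E2f6 at 13.02 and E2f1 at 12.8 CPM per kb followed, and each of these overlapped its neighbour in the order. E2f3 at 8.86 CPM per kb was clear of the members above and below it. E2f5 at 5.94 and E2f8 at 5.71 CPM per kb overlapped each other, and Tfdp2 at 3.79, E2f2 at 2.85 and E2f7 at 2.11 CPM per kb came last, each clear of the next. In KO-labelled hearts E2f8, at 7.33 CPM per kb, stood above E2f5, at 6.72, where it had been below it, but their ranges overlapped in both groups. Of the summed E2f level per kb, E2f4 made up 21.6% ± 1.31 in WT-labelled and 23.4% ± 0.83 in KO-labelled hearts, and E2f8 8.75% ± 0.78 and 10.3% ± 0.89 (SD, n = 3 each), both with overlap. The share of E2f6 was 19.9% ± 0.81 and 18.1% ± 0.44 (SD, n = 3 each), with no overlap, although its CPM did not separate the groups. The same held for E2f2, at 4.34% ± 0.59 and 3.54% ± 0.20 (SD, n = 3 each).

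Several members of the family are transcribed mainly in dividing cells, and the summed level of markers of dividing cells separated the groups. The 6 proliferation markers summed to 931, 902 and 877 CPM in WT-labelled hearts and to 986, 991 and 972 CPM in KO-labelled hearts, each marker having counts in every heart, and 5 of the 6 had a log2 fold change above 0. Only 2 of the 6 were separated between the groups on their own, both upward, as were 14.3% of all tested genes. Bub1, a mitotic checkpoint kinase, stood at -0.052 on the log2 scale. Per 1000 CPM of these markers, E2f8 stood at 34.8, 32.7 and 35.7 CPM in WT-labelled hearts and at 42.0, 42.7 and 37.1 CPM in KO-labelled hearts, still without overlap. On the same scale the groups overlapped for E2f4, E2f5 and E2f7. Tfdp1 and Tfdp2 were both lower in every KO-labelled heart on this scale. Tfdp1 was at 85.4, 89.7 and 99.0 CPM in WT-labelled and 83.6, 82.6 and 80.5 CPM in KO-labelled hearts. The summed markers used as divisor were themselves higher in every KO-labelled heart, which lowers a gene of unchanged CPM on this scale. In CPM the groups of Tfdp1 overlapped. The share of all tested genes separated on this scale is not given here. Other marker lists were mixed. Epicardial markers summed to 157 to 162 CPM in WT-labelled and 166 to 186 CPM in KO-labelled hearts, but 3 of the 6 had a log2 fold change above 0 and 3 below, and Upk3b, at 36.0 to 46.6 against 55.7 to 66.8 CPM, made the largest contribution to the difference. The sum of 5 smooth muscle markers overlapped and was mostly Acta2, and 2 of the 5 had a log2 fold change above 0 and 3 below. Rgs5, a marker of pericytes and mural cells, was at 44.2 to 100.8 CPM in WT-labelled and 11.1 to 16.1 CPM in KO-labelled hearts. Myh11 had a log2 fold change of -2.40 at low levels. It was at 0.604 to 4.75 CPM in WT-labelled and 0.342 to 0.705 CPM in KO-labelled hearts, with overlap. Tagln and Cnn1 stood at 0.62 and 0.48, and Cnn1 was at 126 to 176 CPM in WT-labelled and 208 to 238 CPM in KO-labelled hearts. Among 10 cardiomyocyte markers, 4 had a log2 fold change above 0 and 6 below. Myl7 and Myh6 were the highest at 0.69 and 0.48, and Tnni3 and Ryr2 the lowest at -0.47 and -0.45. The sums of 8 macrophage markers overlapped. The part of these cells in the members' values was not tested. In whole hearts, more dividing cells and more RNA per dividing cell cannot be told apart.

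From heart to heart, the highest Pearson correlations of log2 CPM among the 45 pairs of members were 0.86 for E2f7 and E2f8, 0.86 for E2f4 and E2f7 and 0.82 for E2f4 and E2f8, and E2f2 and E2f3 had the lowest value, -0.82. These values rest on 6 hearts that share libraries and group membership, and they are given as a description. Among 11769 other genes with a mean of at least 5 CPM, the gene closest to E2f8 was Tbc1d22b (r = 0.997 over 6 hearts), then Letmd1 and Cd276, and 354 genes exceeded 0.9. For E2f4 the closest genes were Pld2 (r = 0.998), Pip4k2c and Pbxip1, for E2f7 they were Stk19, Stk40 and Nr2f1, and for E2f1 Ppp5c, Gm2004 and Tgfb1i1. For E2f5 the third closest was Cdc6 (r = 0.98), an E2F target gene that loads the replicative helicase. E2f2 was closest to Sept4, E2f3 to Prkab2, E2f6 to Rgma, Tfdp1 to Tmem241 and Tfdp2 to Trpm7. With so few hearts, between 48 genes for E2f6 and 354 for E2f8 exceeded 0.9.

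The regulators and targets of the family were described from lists of known genes. Among the pocket proteins and the MuvB core, 1 gene was higher and 2 were lower of 9 tested, at an unadjusted p under 0.05 from edgeR. Of all tested genes, 9.48% were higher and 9.98% lower at that p. At an adjusted p under 0.05, edgeR and DESeq2 called 0 genes of this list. DESeq2 called 2.52% of its genes higher and 3.26% lower. Rb1, the retinoblastoma protein that restrains the activators, was at 27.2, 22.8 and 24.4 CPM in WT-labelled and 20.5, 21.6 and 18.7 CPM in KO-labelled hearts, which is -0.29 on the log2 scale (adjusted p = 0.18 from edgeR). Rbl2, a partner of E2F4 in resting cells, was at 45.6, 47.5 and 45.5 CPM and at 36.5, 40.9 and 40.5 CPM, a log2 fold change of -0.23 (adjusted p = 0.17 from edgeR). In both genes every KO-labelled heart was below every WT-labelled heart, a direction in which 12.8% of tested genes were separated. Mybl2, an E2F target that joins MuvB in dividing cells, was at 22.5 to 23.8 CPM and at 27.6 to 28.3 CPM, a log2 fold change of 0.27 (adjusted p = 0.13 from edgeR). Lin9, Lin54 and Lin52, subunits of the MuvB core, had log2 fold changes of 0.17, 0.0030 and -0.13.

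Of the G1 cyclins, their kinases and inhibitors, 14 of 15 were tested and had a median log2 fold change of 0.048. By unadjusted p from edgeR, 4 passed 0.05 upward and 3 downward, against 9.48% and 9.98% of all tested genes. After adjustment DESeq2 passed 1 upward and 1 downward, both of them inhibitors of cyclin-dependent kinases, against 2.52% and 3.26% of its genes. Cdkn1c went from 305 ± 63.5 to 551 ± 41.0 CPM and Cdkn1a from 35.0 ± 8.11 to 22.0 ± 1.89 CPM (SD, n = 3 each), with log2 fold changes of 0.85 and -0.67. The adjusted p from edgeR was 0.076 for Cdkn1c and 0.10 for Cdkn1a. The cyclin E genes Ccne1 and Ccne2 had log2 fold changes of 0.29 and -0.28, and Ccnd2, a D-type cyclin, and Cdkn2c, an inhibitor of CDK4 and CDK6, stood at 0.23 and -0.32.

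Of 5 genes that control E2F turnover or the kinase that inactivates it, 3 were higher at an unadjusted p under 0.05, and 0 lower. The shares of all tested genes were 9.48% higher and 9.98% lower. Skp2, a ubiquitin ligase subunit that is itself an E2F target, was at 23.8 to 30.2 CPM in WT-labelled and 31.4 to 35.3 CPM in KO-labelled hearts, a log2 fold change of 0.35 (adjusted p = 0.15 from edgeR). Ccnf, a ubiquitin ligase subunit that acts on E2F proteins, was at 31.9 to 37.1 and 38.0 to 44.5 CPM, and Cks1b, the partner of Skp2, at 66.4 to 75.0 and 75.2 to 83.5 CPM, with log2 fold changes of 0.28 and 0.18. Fzr1 and Ccna2 had log2 fold changes of 0.17 and -0.0026.

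Of 25 E2F target genes of replication and S phase, 22 had a log2 fold change above 0, where 49.7% of all tested genes did, and the median was 0.14. By unadjusted p from edgeR, 9 passed 0.05 upward and 0 downward, against 9.48% and 9.98% of all tested genes. After adjustment DESeq2 passed 4, all upward, against 2.52% of its genes. The highest were Mcm2, Mcm3 and Mcm7, subunits of the replicative helicase, at 0.32, 0.30 and 0.28, and Pcna and Chek1 were among the lowest at -0.083 and -0.015. Those called by DESeq2 were these helicase genes and Uhrf1, a maintenance factor of DNA methylation that was named after its values were seen, at 115 to 120 and 136 to 141 CPM. The log2 fold change of E2f8, 0.36, was larger than that of any of the 25. The summed proliferation markers given above were also higher in every KO-labelled heart, and their part in this list was not tested.

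Of 8 apoptosis genes known as E2F1 targets, 7 were tested, 1 was higher and 0 were lower at an unadjusted p under 0.05, and the median log2 fold change was 0.033. Among all tested genes, 9.48% were higher and 9.98% lower at that p from edgeR. Bid, a death-promoting member of the BCL-2 family, was at 5.62, 3.85 and 4.72 CPM in WT-labelled and 6.69, 6.75 and 6.94 CPM in KO-labelled hearts, a log2 fold change of 0.52 (adjusted p = 0.16 from edgeR). Apaf1, the core of the apoptosome, had a log2 fold change of 0.096, while Pmaip1 and Bcl2l11, which encode death-promoting BCL-2 family proteins, were at -0.31 and -0.26.

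Of 12 Polycomb and related partners of E2F6, 3 passed an unadjusted p of 0.05 upward and 0 downward, with a median log2 fold change of 0.020. All tested genes passed at 9.48% upward and 9.98% downward with edgeR. L3mbtl2, Ring1 and Ehmt2 stood at 0.26, 0.26 and 0.23, and Mga, Cbx3 and Max at -0.16, -0.081 and -0.071. Of 5 germline genes known to be silenced by E2F6, 3 had too few counts to be tested, with 6 to 46 counts over all hearts. Stag3 was at 1.47, 1.23 and 3.49 CPM in WT-labelled and 4.34, 2.02 and 3.28 CPM in KO-labelled hearts, and Slc25a31 at 0.762, 2.49 and 4.69 and at 1.06, 4.70 and 3.49 CPM, both with overlap. Over the lists of regulators and targets, edgeR called 0 genes at an adjusted p under 0.05.

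**Figure D4:**
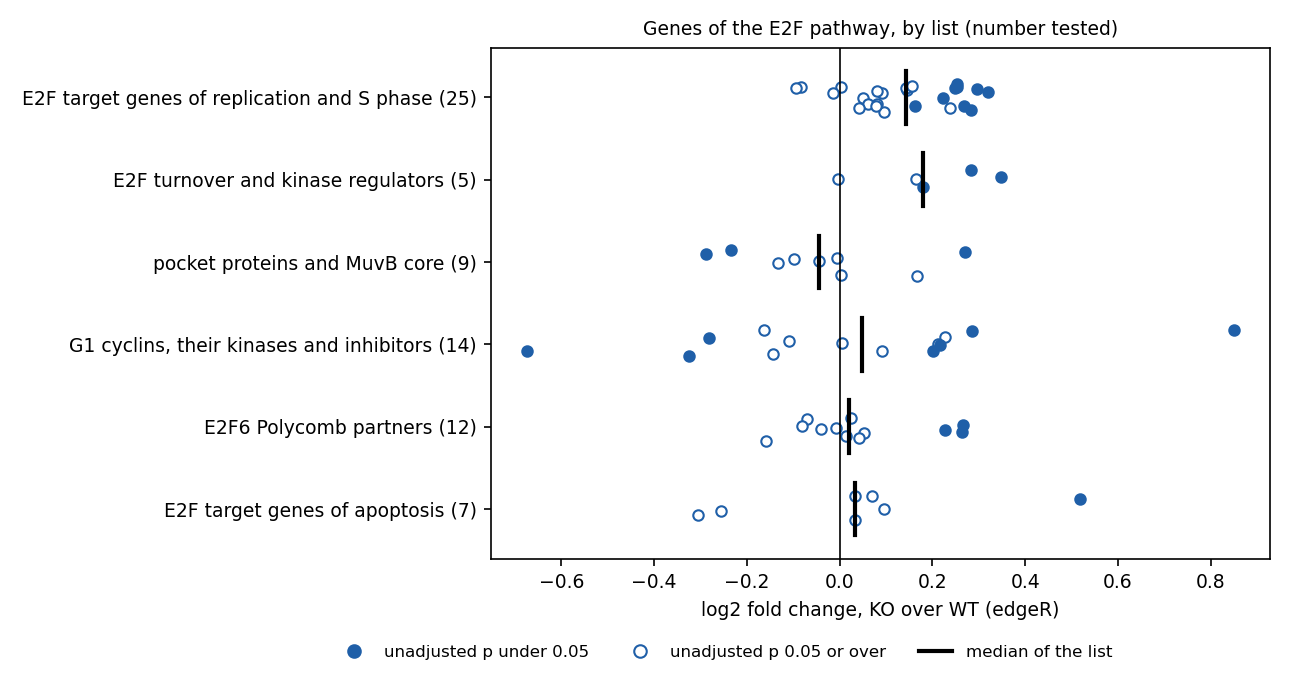
Log2 fold change, KO-labelled over WT-labelled (horizontal axis), of each tested gene in 6 lists of E2F regulators and targets. Filled points have an unadjusted p under 0.05 from edgeR, and black bars are list medians, which run from -0.045 for the pocket proteins and MuvB core to 0.18 for the turnover and kinase regulators.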

How the data were processed

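RNA of whole hearts from 3 WT-labelled and 3 KO-labelled embryos at embryonic day 13.5 was sequenced by the authors, who describe them as biological replicates, so each heart was counted as 1 replicate. For the deposited raw counts, paired-end reads of 76 bp were aligned by the authors with STAR 2.4.2a to GRCm38 (mm10), using GENCODE vM6, and counted with summarizeOverlaps. The overlap and strand settings for RNA are not given in the sources used here, so reads of overlapping genes on either strand cannot be told apart. The authors' DESeq2 table holds a mean, fold change and p-values, none of which were used. It gave only the gene symbols.

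Columns were matched to samples by title. In R 4.3.3, edgeR 4.0.16 kept genes by filterByExpr (minimum count 10, minimum total 15), scaled libraries by TMM and fitted condition as the only term. The adjusted p (Benjamini-Hochberg over all tested genes) had a threshold of 0.05. Standard errors are the log2 fold change divided by the square root of F. Exon lengths are unions of GENCODE vM21 exons, and 45143 of 45792 identifiers had a match. Correlations used log2 CPM with a prior count of 2. DESeq2 1.42.0 was an alternative, with its default independent filtering. The smallest two-sided exact permutation p for 3 hearts against 3 is 0.1, so separation of the groups is given in its place.

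The members and the gene lists were chosen with earlier results of these data known. The named genes are the members, Ino80, the 3 highest and 3 lowest genes of each list by log2 fold change (all genes of a list with 6 or fewer tested), and the 3 genes most like each member. Some genes that this rule selects are not reported here, and for some members fewer than 3 like genes are named. On simulated counts for this comparison with 200 genes changed, edgeR recovered 68% at 2-fold (16868 genes) and 28% at 1.5-fold (16874 genes). The common biological coefficient of variation was 0.15, and members had 314 to 7627 counts per heart.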

Additional observations from a re-analysis of the deposited data

How the results depend on the processing

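The alternatives were RLE size factors, DESeq2, all genes with at least 1 count, genes with at least 1 CPM in at least 3 hearts, thinning to the smallest total, the replicate number as a block, leaving out each heart, and, for the ratio of activators to repressors, sums without gene length and means of log2 CPM. Division by summed proliferation markers was added after seeing the data. E2f4, E2f5, E2f7 and E2f8 had a log2 fold change above 0, and E2f2 and Tfdp2 below 0, in every one of these. The adjusted p of E2f8 ran from 0.028 with DESeq2, where its log2 fold change was 0.36, to 0.29 without KO replicate 2, and that of E2f4 from 0.17 to 0.40. DESeq2 called 436 genes higher and 564 lower, among them 1 member, and edgeR called 262 higher and 341 lower when every gene with any count was kept. In simulation edgeR recovered 28% of genes changed 1.5-fold, and folds as small as the 1.28 of E2f8 were not simulated.

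With the replicate block, 1 gene was higher and 13 were lower at an adjusted p under 0.05. The deviations of hearts with the same number had correlations of 0.0093, -0.12 and -0.094. With 3 hearts per group, these values cannot decide whether the numbers pair the hearts. The paper states that controls were always litter mates, but which of these hearts share a litter is not given in the sources used here. Values near 0 crossed it: E2f6 was at 0.0021 when every gene with any count was kept, and E2f1 and E2f3 were at -0.029 and -0.071 relative to proliferation markers. With each heart left out in turn, values on the log2 scale ran from -0.0069 to 0.17 for E2f1, from -0.049 to 0.049 for E2f6 and from -0.052 to 0.013 for Tfdp1. The genes called ran from 0 to 320 higher and from 0 to 431 lower, the highest both without WT replicate 1. The members at an unadjusted p under 0.05 from edgeR ran from 1 to 2 higher and from 0 to 1 lower (E2f2, without WT replicate 1). At the same p, the genes of the lists ran from 14 to 20 higher and from 3 to 6 lower, against 21 and 5 with all hearts. With all hearts, 9.48% of all tested genes were higher and 9.98% lower at that p. The shares of all tested genes with a heart left out are not given here. The median log2 fold change ran from 0.19 to 0.23 for the repressors, from -0.0069 to 0.051 for the activators, from -0.070 to 0.013 for the pocket protein list and from -0.0064 to 0.055 for the G1 list. Without WT replicate 3 and without WT replicate 1, the median of the germline list was 1.09 and 0.10. The difference in the log2 ratio of activators to repressors was -0.12 with all hearts, -0.11 without gene length and -0.19 with means of log2 CPM, and ran from -0.18 without KO replicate 3 to -0.068 without KO replicate 1.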
